A study of Homo sapiens with 6 samples.

Results

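The genes described here are NFE2L2, which encodes the transcription factor NRF2, its inhibitor KEAP1, and 8 antioxidant genes known as NRF2 targets: NQO1, HMOX1, GCLC, GCLM, TXNRD1, TXN, SRXN1 and GSR. They were chosen by symbol, and all 10 were found among the 16934 genes of the count table. The libraries came from the established human melanoma line A375, in which BRAF is mutated and active. Its cells were treated with CRISPR-Cas9 (Alt-R system) and an sgRNA that was either directed at POLK, the gene of DNA polymerase kappa, or was a non-targeting control, with 3 libraries in each group. No drug or other agent is named in the labels, and both groups grew in the same medium. Nothing in the labels says whether the 3 libraries of a group are separate cultures or separate edits, so each p-value sets a group difference against the spread of these libraries alone, and that spread may be technical. The study asks how oncogenic signalling controls polymerase kappa and how the polymerase bears on drug resistance. For the genes here, the comparison asks whether the transcripts of the NRF2 pathway differ between cells given the POLK sgRNA and cells given the control sgRNA.

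NRF2 is a basic leucine zipper factor that pairs with small MAF proteins and binds the antioxidant response element (ARE). In unstressed cells KEAP1 holds NRF2 in a CUL3 ubiquitin ligase and it is degraded. Oxidants and electrophiles modify cysteines of KEAP1, and NRF2 then accumulates and raises the genes of glutathione synthesis, the thioredoxin system, quinone reduction and heme breakdown. Since this control acts mainly on the protein, the level of NFE2L2 mRNA does not measure NRF2 activity. In melanoma the pathway is known for its part in defence against oxidative stress.

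Total counts were between 42852645 and 56891905 per library. Levels are given in counts per 1000000 (CPM). POLK, the targeted gene, stood at 23.3 ± 0.84 CPM in control libraries and at 18.2 ± 1.003 CPM in POLK sgRNA libraries (SD, n = 3 each), which does not measure the share of alleles edited. SOX10, a neural crest factor that marks the melanocyte lineage, was abundant (1060 and 1155 CPM), while the pigment gene MLANA was at 0.486 and 0.316 CPM and TYR had counts in control library 1 alone (0.443 CPM). Other pigment genes were also low: PMEL rose (0.402 and 0.688 CPM), TYRP1 fell (0.503 and 0.0321 CPM) and DCT was not called (0.517 and 0.207 CPM). The 10 melanocyte markers summed to 1429 to 1458 CPM in control and 1720 to 1788 CPM in POLK sgRNA libraries. The sum of leukocyte markers was 17.6 to 18.0 against 58.1 to 60.3 CPM, most of it CD68 (13.99 and 39.3 CPM) and LYZ (3.42 and 19.7 CPM). CD14 was at 0.354 and 0.0917 CPM, and the leukocyte-defining PTPRC at 0.0269 and 0.0311 CPM. The sums of epithelial markers (105 to 107 against 156 to 162 CPM), fibroblast markers (8.79 to 11.2 against 12.5 to 13.7 CPM) and endothelial markers (2.93 to 3.90 against 5.57 to 6.04 CPM) were also higher with the POLK sgRNA. Most of the epithelial sum was KRT18 (82.9 and 126.5 CPM) and KRT8 (17.8 and 23.8 CPM), while EPCAM was at 0.202 and 0.311 CPM. Among fibroblast markers LUM (0.423 and 4.50 CPM) and DCN (0.0902 and 1.11 CPM) rose. PDGFRA (4.57 and 2.66 CPM) and COL1A2 (0.717 and 0.333 CPM) fell. Of the tested markers, 6 of 9 melanocyte, 2 of 3 leukocyte, 3 of 5 epithelial, 2 of 5 fibroblast and 3 of 4 endothelial genes rose, and 1, 1, 0, 2 and 1 fell, where 32.8% of all tested genes were called higher and 31.6% lower. The part of these differences in the results below was not tested. In bulk RNA, fewer cells of a kind and less RNA per cell cannot be told apart.

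The promoters of 3 members are shown because they belong to the genes with the largest rise (TXNRD1) and the largest fall (GCLM) in the fit of all 6 libraries and to the enzyme partner of the latter (GCLC). The sequences are from RefSeq (GRCh38.p14), run 5′ to 3′ on the strand of the gene, and span 250 bases before to 50 bases after 1 RefSeq start per gene. The GCLC start used lies inside the longer GENCODE 29 gene given further on, whose outermost start is farther upstream. The TXNRD1 start used is the outermost start of its GENCODE 29 gene (104215779 to 104350305). Starts farther inside that gene were not examined, and which start the counted RNA came from is not known. Capitals mark matches on either strand to the core of the antioxidant response element, TGACNNNGC. The windows lie at chr12:104215529-104215828 on the plus strand (TXNRD1), chr1:93909381-93909680 on the minus strand (GCLM) and chr6:53545052-53545351 on the minus strand (GCLC).
TXNRD1: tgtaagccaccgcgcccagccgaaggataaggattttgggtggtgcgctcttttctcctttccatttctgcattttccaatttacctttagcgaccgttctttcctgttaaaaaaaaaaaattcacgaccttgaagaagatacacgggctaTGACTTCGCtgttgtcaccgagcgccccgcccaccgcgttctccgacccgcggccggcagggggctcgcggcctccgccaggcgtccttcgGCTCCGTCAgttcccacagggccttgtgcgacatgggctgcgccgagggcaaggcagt
GCLM: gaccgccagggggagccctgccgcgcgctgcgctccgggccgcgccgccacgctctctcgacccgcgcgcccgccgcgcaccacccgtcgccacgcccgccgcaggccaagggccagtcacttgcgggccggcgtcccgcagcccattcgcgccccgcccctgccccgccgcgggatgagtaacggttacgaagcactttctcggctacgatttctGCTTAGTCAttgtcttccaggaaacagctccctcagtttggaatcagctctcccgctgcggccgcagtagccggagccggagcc
GCLC: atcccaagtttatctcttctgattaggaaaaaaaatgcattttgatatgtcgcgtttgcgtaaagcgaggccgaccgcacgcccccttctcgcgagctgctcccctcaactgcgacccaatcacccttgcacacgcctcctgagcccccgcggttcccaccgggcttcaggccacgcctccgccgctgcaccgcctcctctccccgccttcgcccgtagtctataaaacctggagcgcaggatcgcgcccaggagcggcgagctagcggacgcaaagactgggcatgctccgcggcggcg

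The TXNRD1 window holds 2 matches, TGACTTCGC starting 99 bases before the annotated start and, on the opposite strand, TGACGGAGC 8 bases before it. GCLM holds 1 match, TGACTAAGC on the opposite strand, 34 bases before the start. None of the 3 matches contains TGACTCA or TGAGTCA, the AP-1 site that can lie inside this core. Of the 8 members with a promoter in the RefSeq table, these 2 hold a match, and NFE2L2, KEAP1, NQO1, GCLC, TXN and SRXN1 hold none in this window. HMOX1 and GSR have no entry there. Of all 35116 promoters of this length 13.3% hold a match. The members with a match moved in opposite directions in the data below, TXNRD1 up and GCLM down. A match is a run of letters and does not show that NRF2 binds there, and elements farther from the start are outside these windows.

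The 10 genes did not move as a group. With the POLK sgRNA, TXNRD1, SRXN1 and GSR rose, NFE2L2, NQO1 and GCLM fell, and KEAP1, HMOX1, GCLC and TXN did not pass the test (quasi-likelihood test of edgeR, p adjusted over all 13930 genes tested by the Benjamini-Hochberg method, threshold 0.05). All 10 passed the filter on low counts. Thus 6 of 10 were called, where 64.3% of all tested genes were. The 3 that rose and the 3 that fell compare with the same 32.8% and 31.6% of all tested genes. The groups did not overlap in 7 of the 10 genes, against 67.7% of all genes. The median log2 fold change of the 10 was −0.01, and that of all tested genes was 0.01. The median size of the change, without its sign, was 0.11 for the 10 genes and 0.18 for all tested genes.

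**Figure D1:**
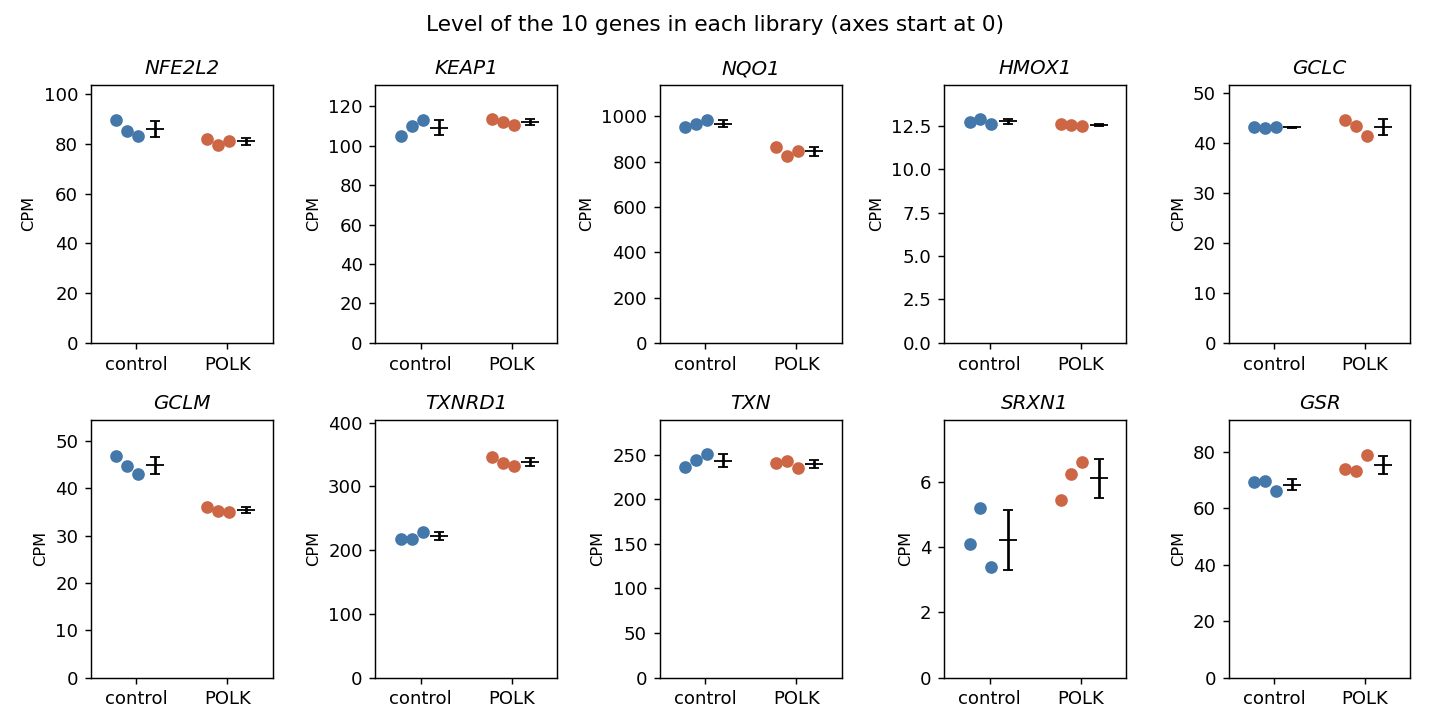
Level of each of the 10 genes in CPM (vertical axes, each from 0) in the 3 control sgRNA libraries (blue) and the 3 POLK sgRNA libraries (orange), with the mean and SD of each group in black. The TXNRD1 mean rose from 222 to 338 CPM, all POLK sgRNA points of GCLM lie under its control points, and the points of KEAP1, GCLC and TXN overlap between groups.

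Among the regulators, NFE2L2 (ENSG00000116044, chromosome 2, 177227595 to 177392697 on the minus strand, GRCh38) was slightly lower with the POLK sgRNA. The control libraries held 89.7, 85.3 and 83.4 CPM and the POLK sgRNA libraries 82.0, 79.6 and 81.2 CPM. The groups did not overlap, but control library 3 was only slightly above POLK sgRNA library 1. The mean fell from 86.1 ± 3.24 to 81.0 ± 1.23 CPM (SD, n = 3), a log2 fold change of −0.09 (SE 0.03, edgeR adjusted p = 0.011). This call was lost on leaving out control library 1 (log2 fold change −0.06 with an edgeR adjusted p of 0.075) or the second POLK sgRNA library (−0.08 with 0.059). NFE2L2 overlaps AGPS, a counted gene on the other strand, by 54 exonic bases, and the libraries were not stranded. It also shares 1054 exonic bases on its own strand with AC019080.1, which was not analysed here.

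KEAP1 (ENSG00000079999, chromosome 19, 10486120 to 10503741 on the minus strand), the substrate adaptor that hands NRF2 to the ligase, had 105, 110 and 113 CPM in control and 113, 112 and 111 CPM in POLK sgRNA libraries. The 2 groups overlapped. The log2 fold change was 0.04, with a 95% interval of −0.02 to 0.09 (edgeR adjusted p = 0.26), so changes beyond 0.09 in size lie outside the interval. The ratio of NFE2L2 to KEAP1 counts, which needs no scaling between libraries, was 0.855, 0.777 and 0.739 in control and 0.725, 0.711 and 0.735 in POLK sgRNA libraries. The groups did not overlap, although control library 3 and POLK sgRNA library 3 differed by little. With the POLK sgRNA the mean ratio fell by 8.45% (exact permutation test, two-sided, p = 0.1, the smallest that 3 libraries against 3 allow).

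Glutathione is made in a first, rate-limiting step by glutamate-cysteine ligase, a pair of the catalytic subunit GCLC and the modifier subunit GCLM, which raises the activity of the enzyme. Of the 2 subunit genes, GCLM fell and GCLC was not called. GCLM (ENSG00000023909, chromosome 1, 93885205 to 93909456 on the minus strand) had 46.8, 44.6 and 43.1 CPM in control and 36.1, 35.1 and 34.99 CPM in POLK sgRNA libraries. Every POLK sgRNA library lay well under every control library. GCLM fell to 79.0% of its control level (log2 fold change −0.34, SE 0.04, edgeR adjusted p = 7.9e-10).

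GCLC (ENSG00000001084, chromosome 6, 53497341 to 53616970 on the minus strand) had 43.1, 42.9 and 43.0 CPM in control and 44.5, 43.4 and 41.4 CPM in POLK sgRNA libraries. The groups overlapped, and the 3 control values were nearly equal. The log2 fold change was 0.00 (95% interval −0.07 to 0.07, edgeR adjusted p = 0.95). The ratio of GCLC to GCLM counts was 0.922, 0.961 and 0.999 in control and 1.23, 1.23 and 1.18 in POLK sgRNA libraries. It rose by 26.6% on average without overlap between the groups (exact permutation test, two-sided, p = 0.1, again the smallest possible). The GCLC means were 43.0 and 43.1 CPM, so the ratio moved with GCLM. GCLC shares 529 exonic bases on its strand with AL033397.1, likewise not analysed here.

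GSR (ENSG00000104687, chromosome 8, 30678061 to 30727999 on the minus strand) encodes glutathione reductase, which returns oxidised glutathione to its reduced form with NADPH. It had 69.3, 69.6 and 65.9 CPM in control and 73.7, 73.3 and 78.7 CPM in POLK sgRNA libraries. The lowest POLK sgRNA library lay above the highest control library. GSR rose by a log2 fold change of 0.14 (SE 0.03, edgeR adjusted p = 0.00028), to 110% of its control level.

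The thioredoxin system reduces disulphides in proteins and feeds the peroxiredoxins. TXNRD1 (ENSG00000198431, chromosome 12, 104215779 to 104350305 on the plus strand), the cytosolic selenoprotein reductase that recharges thioredoxin, had the largest change of the 10 genes in the fit of all 6 libraries, although without control library 2 SRXN1 exceeded it (0.71 against 0.59 on the log2 scale). It had 218, 218 and 229 CPM in control and 345, 337 and 333 CPM in POLK sgRNA libraries. The groups were far apart compared with the spread within each. TXNRD1 rose from 222 ± 6.3 to 338 ± 6.5 CPM (SD, n = 3), a log2 fold change of 0.61 (SE 0.02, edgeR adjusted p = 3.3e-21). A change of at least this size, in either direction, was seen in 14.7% of all tested genes.

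TXN (ENSG00000136810, chromosome 9, 110243811 to 110256640 on the minus strand) encodes thioredoxin, the protein that TXNRD1 recharges. It had 236, 244 and 250 CPM in control and 241, 243 and 234 CPM in POLK sgRNA libraries, and the groups overlapped. The log2 fold change was −0.02 (95% interval −0.07 to 0.03, edgeR adjusted p = 0.39). The ratio of TXNRD1 to TXN counts was 0.925, 0.893 and 0.914 in control and 1.44, 1.39 and 1.42 in POLK sgRNA libraries. It was 55.2% higher with the POLK sgRNA, with no overlap (exact permutation test, two-sided, p = 0.1). The 3 ratios were chosen because the proteins work as pairs, after the counts were seen, and the adjusted p over the 3 is 0.1 for each.

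SRXN1 (ENSG00000271303, chromosome 20, 646615 to 653370 on the minus strand) encodes sulfiredoxin, which restores overoxidised peroxiredoxins. It was the least abundant of the 10 genes, with 162 to 324 counts in a library. The control libraries held 4.08, 5.20 and 3.37 CPM and the POLK sgRNA libraries 5.44, 6.24 and 6.61 CPM. The groups did not overlap, but the gap between control library 2 and POLK sgRNA library 1 was small beside the spread within each group. SRXN1 rose by a log2 fold change of 0.51 with a wide 95% interval of 0.22 to 0.80 (SE 0.13, edgeR adjusted p = 0.0045). It shares 2292 exonic bases on the same strand with AL121758.1, a counted gene with 36 counts over all libraries. How the authors' counting treated reads in shared exons is not given, so the level of SRXN1 and its place as least abundant are uncertain.

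NQO1 (ENSG00000181019, chromosome 16, 69706996 to 69726951 on the minus strand) encodes a reductase that turns quinones into hydroquinones and is often read as a reporter of NRF2. It was abundant in both groups, with 955, 967 and 983 CPM in control and 864, 825 and 848 CPM in POLK sgRNA libraries. All POLK sgRNA libraries were lower than all control libraries. NQO1 fell to 87.3% of its control level (log2 fold change −0.20, SE 0.02, edgeR adjusted p = 1.7e-09). NQO1 shares 575 exonic bases with AC092115.2 on the other strand, which was not analysed here, and the libraries were not stranded.

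HMOX1 (ENSG00000100292, chromosome 22, 35380361 to 35394214 on the plus strand) encodes the inducible heme oxygenase, which splits heme into biliverdin, iron and carbon monoxide. It had 12.7, 12.9 and 12.6 CPM in control and 12.6, 12.5 and 12.5 CPM in POLK sgRNA libraries. The groups did not overlap but nearly touched, at counts of 545 to 720 a library. The log2 fold change was −0.02 (95% interval −0.13 to 0.09, edgeR adjusted p = 0.73), so changes beyond 0.13 in size lie outside the interval.

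Divided by transcript length, the levels of the 10 genes spanned a wide range in control cells. The length used is the union of exons of protein-coding transcripts in GENCODE 29, which sets the order in part. NQO1 was highest at 310 ± 4.5 CPM per kilobase (SD, n = 3), followed by TXN at 280 ± 8.4, and both lay far above TXNRD1 at 41.5 ± 1.2 and KEAP1 at 30.8 ± 1.1. GSR, NFE2L2 and GCLM followed at 21.4 ± 0.63, 15.8 ± 0.59 and 9.14 ± 0.38, HMOX1 and GCLC lay close together at 6.56 ± 0.07 and 6.21 ± 0.02, and SRXN1 was lowest at 1.56 ± 0.34 CPM per kilobase. Reads in the exons that SRXN1 shares with AL121758.1 may not have been counted for it, so its place is uncertain. With the POLK sgRNA, NQO1 and TXN no longer differed beyond their spread, at 271 ± 6.3 and 276 ± 5.0 CPM per kilobase. HMOX1 and GCLC stayed close there, at 6.46 ± 0.03 and 6.22 ± 0.23, apart by about the SD of GCLC. TXNRD1 had moved up to 63.4 ± 1.2 CPM per kilobase. The other neighbours in this order differed by more than their SDs in both groups.

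**Figure D2:**
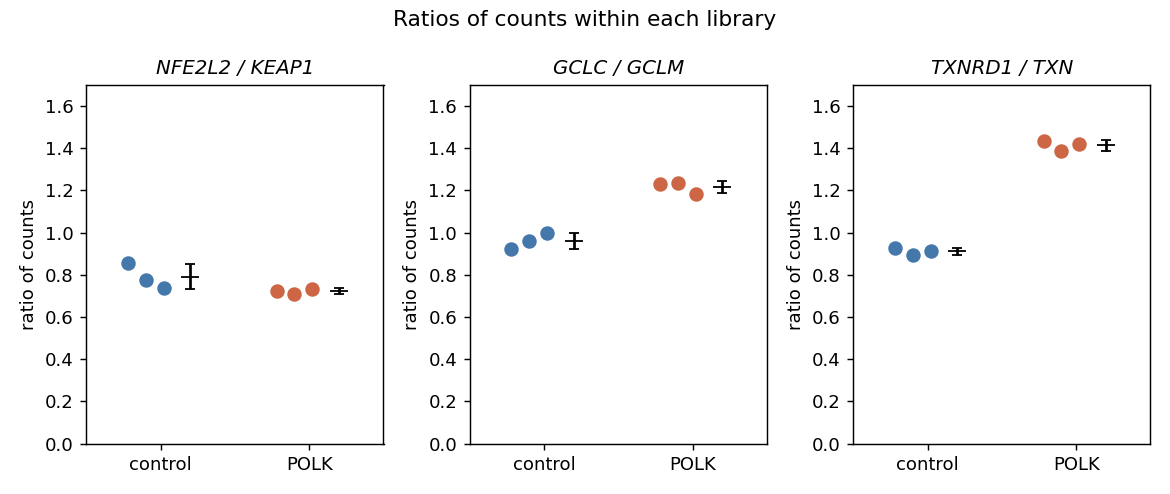
Ratio of the counts of 2 genes within each library (vertical axis, from 0) for the control sgRNA (blue) and POLK sgRNA (orange) libraries, with mean and SD in black. The TXNRD1 to TXN ratio stands at about 0.911 in control and 1.41 in POLK sgRNA libraries, and the GCLC to GCLM ratio at 0.961 and 1.22.

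Neighbouring genes had been seen to move alike in earlier results of these data, and how far this reaches along chromosomes was not measured here. Each member was therefore set beside its neighbours. For each gene the 20 nearest tested genes on each side were taken (29 in all for SRXN1, which lies near the end of chromosome 20). TXNRD1 lay among genes that rose: 37 of its 40 neighbours were higher and 2 lower, and their median log2 fold change was 0.57. The nearest on either side, NFYB, a subunit of a CCAAT-binding factor, and CHST11, a chondroitin sulfotransferase, had 0.47 and 0.42. TXNRD1 exceeded the median of its neighbours by 0.04, and 17 of the 40 had a larger log2 fold change. SRXN1 lay in a like stretch, where 26 of 29 neighbours were higher and none lower, with a median of 0.60. SRXN1 was 0.09 under that median. The adjoining TCF15 and FAM110A rose by 2.22 and 0.73 on the log2 scale. Next to them, CSNK2A1, a casein kinase 2 subunit, and PSMF1, a proteasome inhibitor, rose by 0.56 and 0.55. Thus the rises of TXNRD1 and SRXN1 were close to the median of the genes around them.

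NQO1 lay in a stretch that fell. Of its 40 neighbours 34 were lower and 1 higher, the median was −0.43 (log2 fold change), and the adjoining NFAT5, an osmotic stress factor, and NOB1, a ribosome assembly nuclease, had −0.52 and −0.44. NQO1 fell less than the median of its neighbours, by a margin of 0.23, and 33 of the 40 had a lower log2 fold change. Around GCLM and GSR the neighbours' medians were near 0. GCLM had 8 neighbours higher, 12 lower and 20 not called, with a median of −0.06, and stood 0.28 below it, with 5 of 40 neighbours lower still. The adjoining DNTTIP2 and ARHGAP29 had log2 fold changes of −0.05 and −0.02 and were not called. Beyond DNTTIP2, however, BCAR3, FNBP1L and DR1 fell by 0.66, 0.40 and 0.28 on the log2 scale. GSR had 14 neighbours higher and 16 lower, with a median of 0.00, and stood 0.14 above it. That median hides large changes both ways. TEX15, PURG and NRG1, close to GSR, fell by 5.96, 2.83 and 2.19 on the log2 scale. SCARA5 and CLU, farther off, rose by 1.14 and 0.92. For NFE2L2, KEAP1, HMOX1, GCLC and TXN the neighbours' medians lay between −0.05 and 0.06. These differences from neighbours carry no test, and the part of the stretches in the changes of single genes was not tested.

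**Figure D3:**
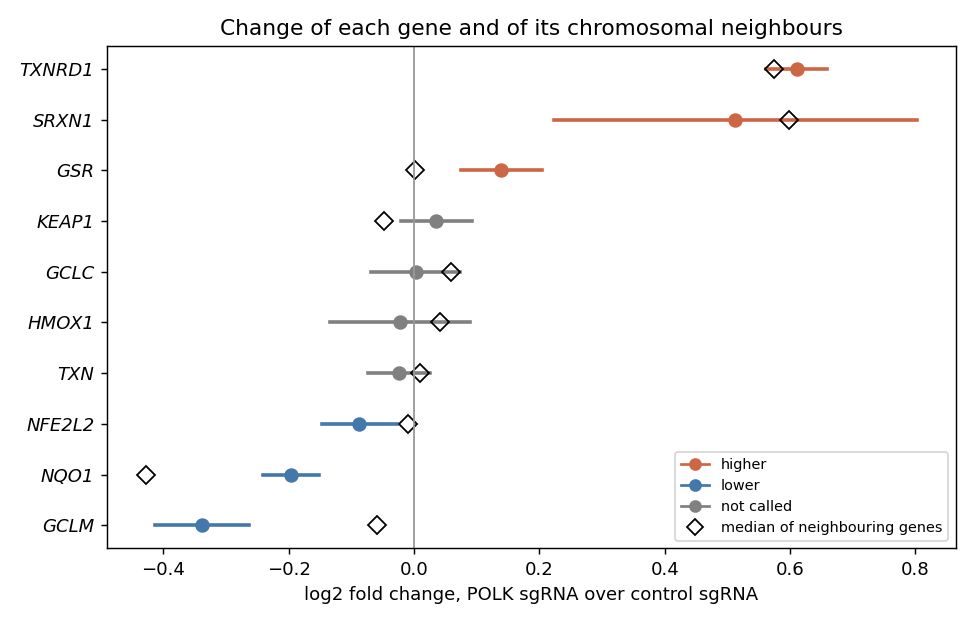
Log2 fold change (POLK sgRNA over control sgRNA) of each of the 10 genes with its 95% interval (dots and lines; orange higher, blue lower, grey not called) and the median of its chromosomal neighbours (open diamonds). The diamonds of TXNRD1 and SRXN1 lie at 0.57 and 0.60 within the genes' own intervals, that of NQO1 at −0.43 lies to the left of its interval, and those of GCLM and GSR lie near 0.

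**Figure D4:**
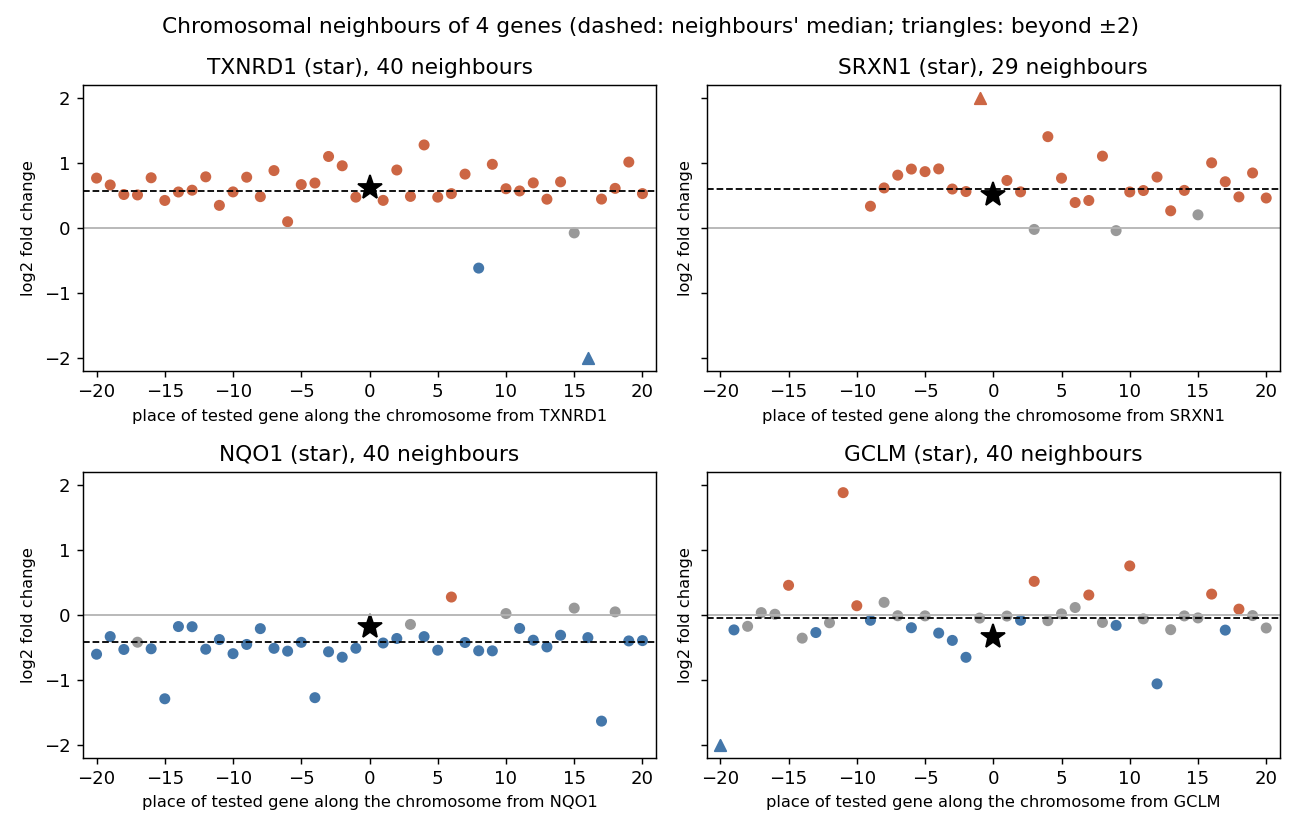
Log2 fold change (vertical axis) of the nearest tested genes, in order along the chromosome (horizontal axis, place from the named gene), around TXNRD1, SRXN1, NQO1 and GCLM. Stars are the named genes, dashed lines the neighbours' medians (0.57, 0.60, −0.43 and −0.06), colours as in the plot of gene changes, and triangles values beyond the axis, drawn at its edge.

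Beyond the 10 genes, 123 other genes of the pathway were read from 8 lists, and 119 of them were tested. Of these 51 rose, 42 fell and 26 were not called, so 78.2% were called, against 64.3% of all tested genes. Tested genes of this kind are mostly well expressed: 104 had a mean of at least 10 CPM, of which 80.8% were called, against 69.0% of all tested genes at that level. Their median log2 fold change was 0.03, and the median size of their changes was 0.19, close to the 0.18 of all tested genes. Like the 10 genes, they moved in both directions in every list. The counts given for each list below compare with 32.8% of all tested genes called higher and 31.6% called lower.

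Of 17 further regulators of NRF2, 6 rose and 7 fell. PGAM5, a mitochondrial phosphatase that binds KEAP1, rose from 92.4 ± 1.75 to 140 ± 2.8 CPM, in a stretch of chromosome 12 whose neighbours had a median log2 fold change of 0.52. GSK3B, a kinase that marks NRF2 for KEAP1-independent degradation, fell from 198 ± 2.8 to 160 ± 3.0 CPM and the coactivator CREBBP from 123 ± 2.1 to 100.4 ± 3.9 CPM (SD, n = 3 each).

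Genes that make, import or use glutathione moved both ways: of 18 tested, 10 rose and 6 fell. SLC7A11, the cystine importer that feeds glutathione synthesis, had 65.0, 67.1 and 63.1 CPM in control and 110.5, 101.6 and 98.9 CPM in POLK sgRNA libraries. Its 3 POLK sgRNA values lay far above the control values, and its neighbours on chromosome 4 had a median log2 fold change of 0.06 against its own 0.67. GSS, which completes glutathione, rose by 0.34 beside a neighbours' median of 0.29, and the glyoxalase gene GLO1 fell by 0.25 on the log2 scale. SLC7A11 is also a known target of ATF4.

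Among 14 glutathione transferases 9 rose and 2 fell. MGST1 and MGST2, membrane-bound members, went up from 27.6 ± 0.51 to 51.7 ± 1.8 CPM and 8.14 ± 0.76 to 16.5 ± 0.25 CPM. GSTM2 rose from 0.596 ± 0.145 to 2.35 ± 0.26 CPM, and its value is uncertain since it has close relatives that can share reads. Neighbours of these 3 genes had medians of 0.02 to 0.06.

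In the thioredoxin and peroxiredoxin list, 6 of 18 rose and 9 fell. NXN, which encodes nucleoredoxin, a thioredoxin relative, showed the largest change of any listed gene. It had 12.8, 12.3 and 12.04 CPM in control and 0.613, 1.07 and 1.04 CPM in POLK sgRNA libraries, a log2 fold change of −3.79 (SE 0.11, edgeR adjusted p = 2.9e-24). No POLK sgRNA library came near the control level, while the neighbours of NXN on chromosome 17 had a median of −0.05. PRDX4, the peroxiredoxin of the endoplasmic reticulum, fell by 0.29 on the log2 scale, and the methionine sulfoxide reductase gene MSRB3 rose by 0.67 in a stretch of chromosome 12 with a neighbours' median of 0.57.

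NADPH supplies the electrons for both systems, and of 13 tested genes of its supply 6 rose and 3 fell. PGD, of the pentose phosphate pathway, fell from 285 ± 5.0 to 217 ± 1.4 CPM, while PGLS, the step before it, rose from 57.5 ± 0.57 to 73.0 ± 1.8 CPM and the mitochondrial transhydrogenase NNT from 64.5 ± 1.7 to 85.2 ± 0.57 CPM. Of 9 heme and iron genes 5 rose and 3 fell, and the 2 ferritin subunits moved apart: FTH1 rose from 361 ± 11.6 to 420.5 ± 9.9 CPM and FTL fell from 1098 ± 12.6 to 974 ± 7.1 CPM. SLC48A1, a heme transporter, rose by 0.42 beside a neighbours' median of 0.40.

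Drug metabolism and export genes linked to NRF2 also divided, with 10 of 22 tested genes lower and 6 higher. ABCC2, an export pump, rose from 28.3 ± 0.35 to 42.2 ± 0.26 CPM. ABCC5, a related pump, and CES2, a carboxylesterase, fell by 0.68 and 0.42 on the log2 scale, in stretches of chromosomes 3 and 16 with neighbours' medians of −0.37 and −0.44. AKR1C1, AKR1C2 and AKR1C3, aldo-keto reductases known as NRF2 targets in human cells, were named after their values were seen. They fell by 1.35, 0.48 and 0.47 on the log2 scale, beside neighbours' medians of −0.11 to −0.09, and as close paralogs they can share reads. Of 8 genes that remove superoxide and peroxide or respond to them 3 rose, including the copper chaperone CCS (0.17) and the mitochondrial carrier UCP2 (0.66), and 2 fell, including the stress kinase OXSR1 (−0.38).

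The 119 tested genes were also grouped by their neighbours, with a limit on the neighbours' median of 0.2 in size that was chosen after the values were seen. With that limit, the 5 genes in raised stretches rose (GGT7, GSS, MSRB3, PGAM5 and SLC48A1) and the 4 in lowered stretches fell (ABCC5, CES2, CHAC2 and TFRC, with CHAC2 just inside at −0.21). A lower limit breaks this pattern: PRDX2, just outside with a neighbours' median of 0.17, fell by 0.17 on the log2 scale. The other 110 divided into 46 that rose, 38 that fell and 26 not called, with a median log2 fold change of 0.03.

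**Figure D5:**
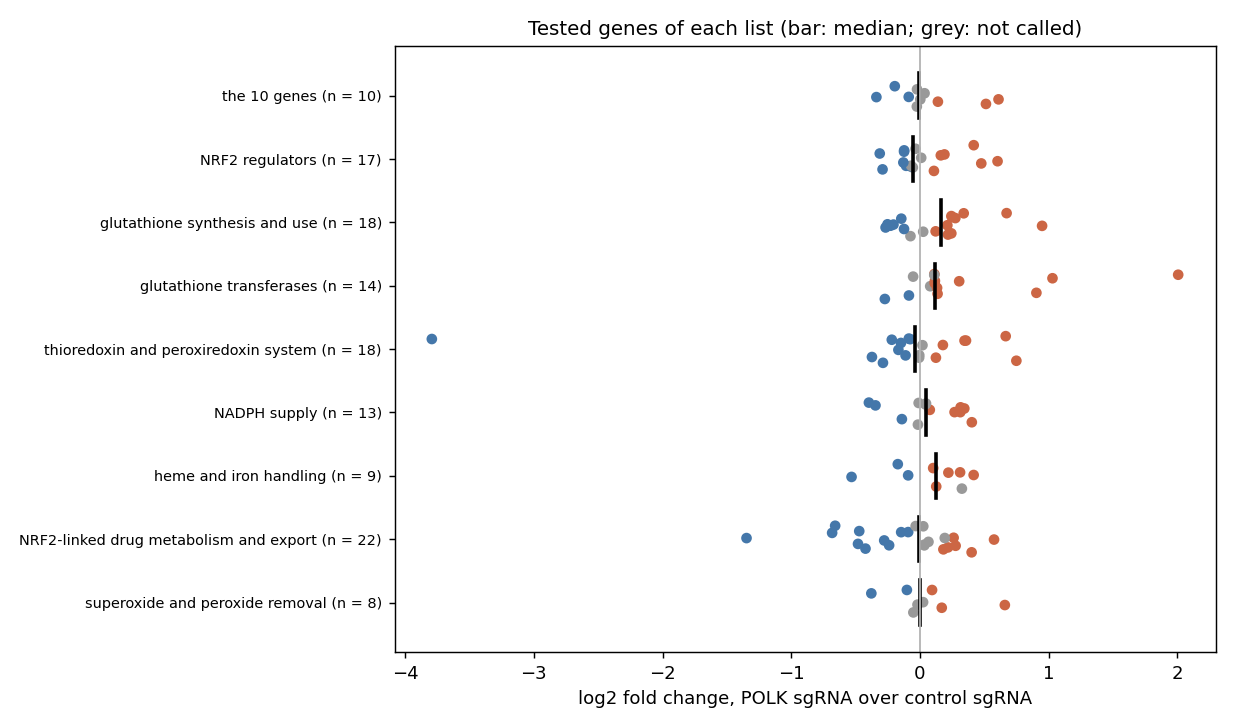
Log2 fold change (horizontal axis) of every tested gene in the 10-gene set and the 8 other lists (rows), with the median as a black bar; orange genes were higher, blue lower and grey not called. Every list holds genes on both sides of 0, and NXN lies far to the left at −3.79.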

How the data were processed

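RNA was sequenced from 6 A375 libraries, 3 per sgRNA, grouped by title. Per the labels' protocols, mRNA libraries were made with the TruSeq RNA V2 kit. The build GRCh38 and the tools FastQC, STAR, Trimmomatic and DESeq2 are named per the submitters' processing notes. The authors deposited raw counts per gene. For the counting tool, its strand setting and the annotation, the sources used here give nothing.

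From these counts, genes were filtered (filterByExpr, minimum count 10, minimum total 15), scaled by TMM and compared with edgeR 4.0.16 (quasi-likelihood F test, robust, two-sided, R 4.3.3), adjusted over all genes tested by Benjamini-Hochberg with a threshold of 0.05. SEs were derived from F (size of the log2 fold change divided by the root of F), and intervals are 95%. CPM uses TMM-scaled library sizes. Gene positions, exon lengths and neighbours came from GENCODE 29 (GRCh38), which placed 13923 tested genes, and promoters from RefSeq.

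The 10 genes and all lists were chosen with earlier results of these data known. Named were the 10 genes, POLK and the 3 genes with the smallest p in each list. Alternatives were the size factors of DESeq2 1.42.0, library size alone, no filter, a mean of at least 1 CPM, the replicate number as a block, DESeq2, voom of limma 3.58.1, each library left out, and subtraction of the neighbours' median.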

Additional observations from a re-analysis of the deposited data

How the results depend on the processing

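Across 13 alternative fits, the 35 named genes kept their direction where called, and their call, in 453 of 455 results. The exceptions were the 2 for NFE2L2 given above. Of the 10 genes, 6 were called in every alternative except on leaving out control library 1 or POLK sgRNA library 2, when 5 were. Between 89 and 94 of the other pathway genes and between 8008 and 9229 of all genes were called. TXNRD1 ranged from 0.59 to 0.63 on the log2 scale and SRXN1 from 0.37 to 0.71. With the neighbours' median subtracted, 4 of the 6 called members kept their direction, while NQO1 turned to 0.23 and SRXN1 to −0.085, values with no test. With the replicate block 6 members were called. To look for pairing, each gene's group mean was subtracted from its log2 values of CPM plus 1, over 9432 genes. The remainders of same-numbered control and POLK sgRNA libraries had correlations of −0.06, −0.08 and −0.15. Those of differently numbered libraries had correlations from −0.05 to 0.11. Thus there was no sign that same-numbered libraries moved together. SRXN1 had the fewest counts of the 10 genes, 162 to 324 a library, and its control CPM spread by 0.921 (SD) around 4.22.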
